A study of Caenorhabditis elegans with 10 samples.

Results

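The circRNAs described here come from 2 aminoacyl-tRNA synthetase genes, *fars-2* and *wars-1*, and were measured in whole *C. elegans* hermaphrodites on day 3 of adulthood. A circRNA is a closed RNA ring that forms when the splice donor at the end of an exon is joined back to the acceptor of the same or an upstream exon. The deposited table holds read counts for 141 such back-splice junctions, called loci, which are fewer than the circRNAs the study detected. The members are the table's loci whose host gene, by the study's list of detected circRNAs, is *fars-2* or *wars-1*. These were 3 of 141 loci, 2 from *fars-2* and 1 from *wars-1*. The pair of genes was chosen by the measured difference in these loci's counts between genotypes, so every difference between genotypes at these loci is given as a description and not as a test.

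Total RNA was sequenced from 5 biological replicates of *nova-1* mutants, strain VDL1105 with the deletion allele *nova-1(tm6146)*, and from 5 of wild-type, strain N2 Bristol. All animals of both genotypes were age-synchronized and moved as L4 larvae to plates with FUdR, a drug that stops progeny from forming. The mutant is 1 strain, outcrossed to wild-type, and the RNA is from whole animals, so that all tissues are mixed. The question behind the comparison is whether *nova-1*, the worm homolog of the mammalian splicing regulators NOVA1 and NOVA2, affects circRNA levels.

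Aminoacyl-tRNA synthetases attach each amino acid to its tRNA and so supply the ribosome with charged tRNAs. *fars-2* encodes the mitochondrial phenylalanyl-tRNA synthetase, which serves translation inside the mitochondrion. *wars-1* encodes the cytoplasmic tryptophanyl-tRNA synthetase, which serves translation of nuclear-encoded messages. Exons in a circRNA are the same as those of the linear message, but a ring lacks the cap and tail on which ordinary translation depends. Among 36 listed synthetase genes, 32 of which carry that symbol in the WBcel235 annotation, *fars-2* and *wars-1* were the 2 with a locus in the table. Among 192 annotated genes for ribosomal proteins and translation factors, *rps-7*, which encodes a protein of the small ribosomal subunit, was the 1 with a locus. It was not called different between genotypes (log2FC -0.13, standard error 0.32). For the other genes of both lists, the study's longer list of detected circRNAs was not searched.

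Both *fars-2* loci shared 1 end and differed at the other. The long locus, ce11_new_12 in the study's list, is given in the table as chromosome V from 19900492 to 19902822, a span of 2331 nt. The short locus, cel_circ_new_0006225, runs from 19901715 to the same end, a span of 1108 nt, and lies wholly inside the long one. In the WBcel235 annotation *fars-2* occupies chromosome V from 19897977 to 19907434 on the minus strand, and transcript Y60A3A.13a.1 has 9 exons. The span of the long locus equals exactly 1 pair of exon ends of this gene, from the start of exon 1 to the end of exon 4. The span of the short locus equals exactly 1 pair, from the start of exon 1 to the end of exon 2. The acceptor of both junctions is therefore the first base of annotated exon 1 (19907284 to 19907434), and the donors are the ends of exon 4 (19905104 to 19905269) and of exon 2 (19906327 to 19906483).

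This placement rests on lengths, because the positions printed in the table are not those of WBcel235 exons, although the labels name ce11. The exon pairs lie 4612 nt above the table's positions for both *fars-2* loci, and the same offset separated the loci of the neighbouring genes *gly-4* and *sec-23* from their exons. Over the 114 loci of the table with exactly 1 such pair, the offset ran from -3 to 4612 nt, and it was 0 at 12 of them. No position was converted. With introns removed, the long ring would hold 577 nt and the short ring 308 nt. The annotated start codon lies in exon 1, with 1 nt of 5′ UTR before it, so both *fars-2* rings would contain it. In many *C. elegans* genes the first exon begins at a splice acceptor to which a short leader RNA is joined in trans, so that an exon 1 can have an acceptor. Of the 114 placed loci, 13 (11.4%) began at exon 1 of an annotated transcript of their gene, and the *fars-2* loci were 2 of these.

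The *wars-1* locus, cel_circ_0001429, is given as chromosome V from 18856046 to 18856531, a span of 486 nt. *wars-1* occupies chromosome V from 18852704 to 18859221 on the minus strand, and its transcript Y80D3A.1.1 has 4 exons. The span equals exon 3 alone (18856082 to 18856567), which is entirely coding. Here the offset was 36 nt, and the ring holds neither the start codon nor an intron between its ends. Single-exon rings made up 43 of the 114 placed loci (37.7%). By this placement the 3 members span 1, 2 and 4 annotated exons. Which inner exons a ring keeps was not measured.

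**Figure D1:**
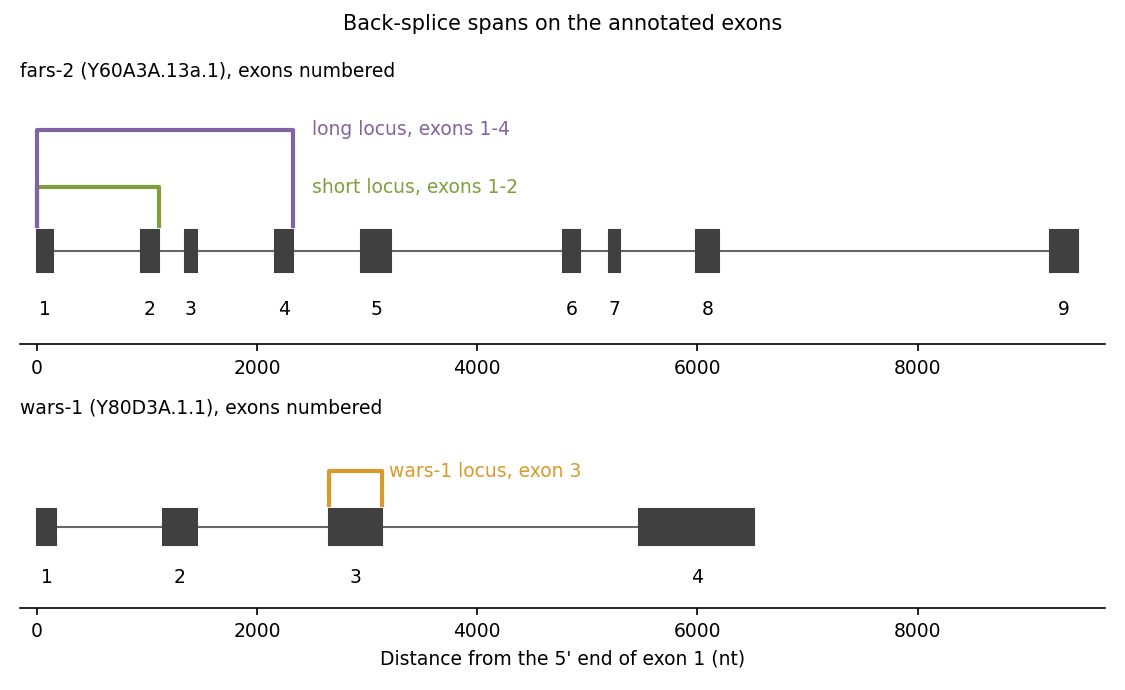
Exons of *fars-2* (top) and *wars-1* (bottom) as boxes along the distance from the 5′ end of exon 1, in nt, with brackets over the span of each locus. Both *fars-2* brackets begin at exon 1 and close at exon 2 (308 exonic nt) or exon 4 (577 exonic nt), and the *wars-1* bracket covers exon 3 (486 nt).

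The *nova-1* libraries held 8514 to 9437 counts over the 141 loci, with a median of 8972, and the wild-type libraries 7955 to 15014, with a median of 8594. Wild-type replicate 1 had the highest total and stood apart. Its Spearman correlation across loci with the other wild-type replicates averaged 0.594. The same average was 0.837 to 0.878 for the *nova-1* replicates and 0.769 to 0.80 for the other wild-type replicates. Values are therefore given with and without this replicate where they rest on it. No locus of the table belongs to *nova-1* itself, so the genotype labels could not be checked on the deleted gene. Below, normalized counts are counts after TMM scaling, set to a mean effective library of 9421 counts. Every locus was counted on a scaffold of 200 nt, so levels of different loci carry the same length and were compared without a length correction. Whether reads map equally well to each scaffold was not tested. In whole animals, fewer cells of a type and less RNA per cell cannot be told apart.

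The long *fars-2* circRNA was more abundant in *nova-1* mutants. Its normalized counts were 46.6, 44.9, 59.8, 34.4 and 49.1 in *nova-1* replicates 1 to 5, against 23.3, 12.9, 25.6, 27.4 and 18.7 in wild-type replicates 1 to 5. All *nova-1* replicates stood above all wild-type replicates, and the nearest were 34.4 in the mutants and 27.4 in wild-type. The genotype means were 47.0 ± 9.10 (SD, n = 5) in *nova-1* mutants and 21.6 ± 5.85 (SD, n = 5) in wild-type, a ratio of 2.17. The log2FC of *nova-1* over wild-type was 1.12 (standard error 0.28). Without wild-type replicate 1 it was 1.17. In raw reads the locus had 247 counts over the mutant libraries and 102 over the wild-type libraries, and it ranked 40 of 141 by total count.

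The short *fars-2* circRNA was lower in the mutants by a smaller margin. Its normalized counts were 67.1, 67.9, 37.5, 46.9 and 52.4 in *nova-1* replicates 1 to 5, against 63.7, 106, 59.4, 79.9 and 82.9 in wild-type replicates 1 to 5. The groups overlapped, since 3 of 5 *nova-1* replicates were below the lowest wild-type replicate and the other 2 were not. All 5 *nova-1* replicates were below the wild-type mean. Means were 54.4 ± 13.1 (SD, n = 5) in *nova-1* mutants and 78.3 ± 18.3 (SD, n = 5) in wild-type, with a log2FC of -0.53 (standard error 0.24). The locus had 285 counts over the mutant libraries and 375 over the wild-type libraries, and ranked 17 of 141. The value is sensitive to scaling, and with column totals in place of TMM the log2FC was -0.31.

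Summed over both loci, the *fars-2* circRNA level was close to equal in the genotypes. The sum was 114, 113, 97.3, 81.3 and 102 normalized counts in *nova-1* replicates 1 to 5, against 87.1, 119, 85.1, 107 and 102 in wild-type replicates 1 to 5. The groups overlapped over nearly their whole range. Means were 101 ± 13.2 (SD, n = 5) in *nova-1* mutants and 99.9 ± 14.1 (SD, n = 5) in wild-type, a ratio of 1.01. The sum varied less between replicates than either locus did, with a coefficient of variation of 13.1% in the mutants and 14.1% in wild-type. For the long locus it was 19.4% and 27.1%, and for the short locus 24.1% and 23.3%, mutants first in each pair. The sum depends on the scaling, and with column totals its log2 ratio of means was 0.23, against 0.02 with TMM.

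**Figure D2:**
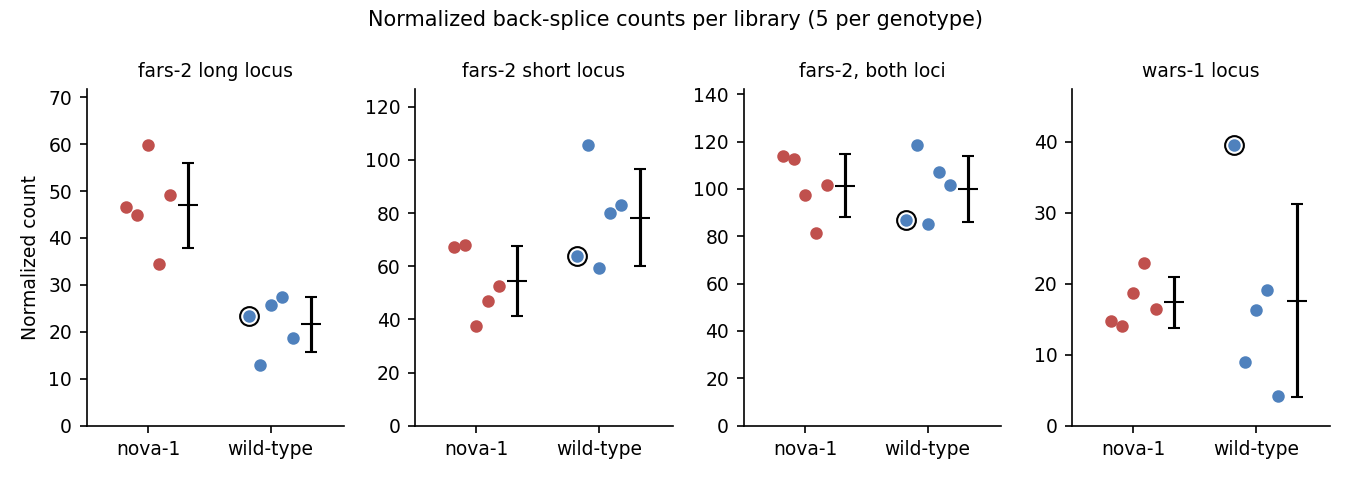
Normalized counts (vertical axes, each from 0) of the long *fars-2* locus, the short *fars-2* locus, their sum and the *wars-1* locus in 5 *nova-1* and 5 wild-type libraries, with mean and SD beside the points and wild-type replicate 1 ringed. The groups do not overlap at the long locus (34.4 to 59.8 against 12.9 to 27.4), overlap at the short locus, and nearly coincide in the sum.

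The split between the 2 acceptor-sharing junctions can be read without any scaling, as the share of *fars-2* counts that fell on the long locus of a library. The long locus had 57, 45, 67, 33 and 45 raw counts in *nova-1* replicates 1 to 5, against 26, 13, 22, 23 and 18 in wild-type replicates 1 to 5. The short locus had 82, 68, 42, 45 and 48 raw counts in *nova-1* replicates, against 71, 106, 51, 67 and 80 in wild-type replicates. The share of the long locus was therefore 41.0, 39.8, 61.5, 42.3 and 48.4% in *nova-1* replicates 1 to 5, against 26.8, 10.9, 30.1, 25.6 and 18.4% in wild-type replicates 1 to 5. It averaged 46.6% ± 8.94 (SD, n = 5) in *nova-1* mutants and 22.4% ± 7.70 (SD, n = 5) in wild-type, a difference of 24.2 percentage points. The groups did not overlap and were separated by 9.69 points. With few counts behind each share, single libraries were less clearly apart. In the mutants the interval around the lowest share, 39.8% of 113 counts, ran from 31.3 to 49.0% (95%, Wilson). In wild-type the interval around the highest share, 30.1% of 73 counts, ran from 20.8 to 41.4%, so these 2 intervals overlapped. Such intervals cover counting error only. With counts summed over replicates the shares were 46.4% in *nova-1* mutants and 21.4% in wild-type. Leaving out each replicate in turn kept the difference between 20.5 and 26.2 points. Since the 2 junctions have a common acceptor, their scaffolds share sequence on that side, and how reads matching both were assigned is not given in the sources used here.

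**Figure D3:**
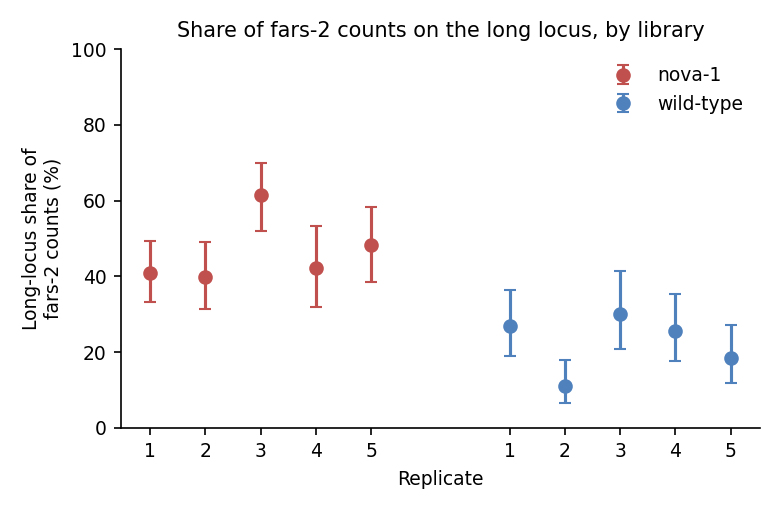
Share of *fars-2* counts on the long locus (%, vertical axis) in each *nova-1* and wild-type library, with 95% Wilson intervals as bars. The *nova-1* libraries lie between 39.8 and 61.5% and the wild-type libraries between 10.9 and 30.1%.

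Which of the 2 rings was the more abundant is a comparison within libraries and does not use the genotypes. The short locus had more counts than the long one in 9 of 10 libraries, *nova-1* replicate 3 being the exception. Over the 10 libraries the log2 ratio of long over short averaged -1.02 ± 1.05 (SD, n = 10). The short ring was thus 2.03-fold more abundant on average (two-sided exact sign-flip permutation test, p = 0.0156, adjusted p = 0.0469 over 3 such tests). This average mixes the genotypes, whose ratios did not overlap, and describes neither of them alone. In the *nova-1* libraries alone the ratio averaged -0.20 ± 0.52 (SD, n = 5), with the short locus ahead in 4 of 5 (exact sign-flip test, p = 0.5, adjusted p = 0.5). In the wild-type libraries alone it averaged -1.85 ± 0.72 (SD, n = 5), with the short locus ahead in 5 of 5 and 3.61-fold more abundant (exact sign-flip test, p = 0.0625, adjusted p = 0.0938). With 5 libraries 0.0625 is the smallest p this test allows. Leaving out each library in turn, the p over the remaining 9 ran from 0.00391 to 0.0312 (exact sign-flip test). Adjusted over the same 3 tests it ran from 0.0117 to 0.0938 and was under 0.05 in 1 of 10 cases, without *nova-1* replicate 3, so the adjusted call did not hold with 1 library fewer. These ratios also rest on how reads common to both scaffolds were assigned.

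The *wars-1* circRNA was the rarest of the 3 and its levels in the genotypes overlapped. Its normalized counts were 14.7, 14.0, 18.7, 22.9 and 16.4 in *nova-1* replicates 1 to 5, against 39.5, 8.96, 16.3, 19.1 and 4.15 in wild-type replicates 1 to 5. Wild-type spanned a wider range, and every *nova-1* replicate lay within it. Without wild-type replicate 1 the highest wild-type value was 19.1, and *nova-1* replicate 4 with 22.9 lay above it. Means were 17.4 ± 3.62 (SD, n = 5) in *nova-1* mutants and 17.6 ± 13.6 (SD, n = 5) in wild-type, with a log2FC of -0.04 (standard error 0.41). The near-equal means rest on wild-type replicate 1. Without it the wild-type mean was 12.1 ± 6.82 and the log2FC was 0.55. The locus had 90 counts over the mutant libraries and 87 over the wild-type libraries, and ranked 97 of 141. Of the counts of all 3 loci in a library, *wars-1* took 14.9% ± 4.47 in *nova-1* mutants and 14.7% ± 10.6 in wild-type (SD, n = 5 each), or 10.5% ± 5.99 in wild-type without replicate 1 (SD, n = 4).

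With an absolute log2FC above 0.5 and an unadjusted P under 0.05 (edgeR), 57 of the 141 loci were called (40.4%), and 2 of the 3 members were among them. The long *fars-2* locus was among the 30 called higher in *nova-1* mutants (21.3%), and the short one among the 27 called lower (19.1%). With a Benjamini–Hochberg adjusted P under 0.05 in edgeR, 40 loci were called (28.4%), of which 22 were higher in *nova-1* mutants (15.6%), and the long *fars-2* locus was the 1 member among these. Groups without overlap in normalized counts were found at 35 loci (24.8%), 21 of them higher in *nova-1* mutants (14.9%), and again the long *fars-2* locus was the 1 member among these. Nothing further is read from these counts, since the members were chosen by this contrast. The call of the long locus was the same under all 17 alternatives tried, by both criteria. These reuse the libraries by which the locus was chosen, so they describe the processing and add no support. The unadjusted call of the short locus held under 11 of the 17 and was lost with column totals and without *nova-1* replicate 3, 4 or 5 or wild-type replicate 2 or 5. By adjusted P the short locus was called under 2 of the 17, with the low-count filter and without wild-type replicate 1 (log2FC -0.59).

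The table holds 14 host genes with 2 or more loci, each with at least 50 counts per genotype, and in 6 of them loci share an end. For each gene, the share of counts on its most counted locus was compared in the same way. For *fars-2* that locus is the short one, with 53.4% ± 8.94 of counts in *nova-1* mutants and 77.6% ± 7.70 in wild-type (SD, n = 5 each). The change was -24.2 points. In the other 13 genes the absolute change ran from 0.196 to 24.2 points with a median of 9.96. In 4 of these 13 the 2 listed loci lie within 1 nt of each other at both ends, so that their share splits what may be 1 ring. Without these 4 genes, the other 9 ran from 0.640 to 24.2 points with a median of 10.2. The gene with the 0.640-point change, which has 5 loci, also holds such a pair, so the 9 are not free of this split. Since *fars-2* was chosen for this difference, its place among the genes is a description. The *gap-2* gene, which encodes a RasGAP, had a change of the same size, with 93.7% ± 0.909 in *nova-1* mutants and 69.5% ± 8.20 in wild-type. With each library left out in turn, *fars-2* changed more than *gap-2* in 6 of 10 cases and less in 4. The 2 loci of *gap-2* share no end, and 1 of them changed while the other had a log2FC of -0.03. The genotypes did not overlap in 4 of the 14 genes, *fars-2*, *gap-2*, *pqn-41* and *crh-1*, the last 3 being named after their values were seen. In *crh-1*, which encodes the worm CREB transcription factor, the change was 10.2 points between 2 rings with a common donor. The *fars-2* rings instead have a common acceptor, and their spans differ by 2 annotated exons.

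**Figure D4:**
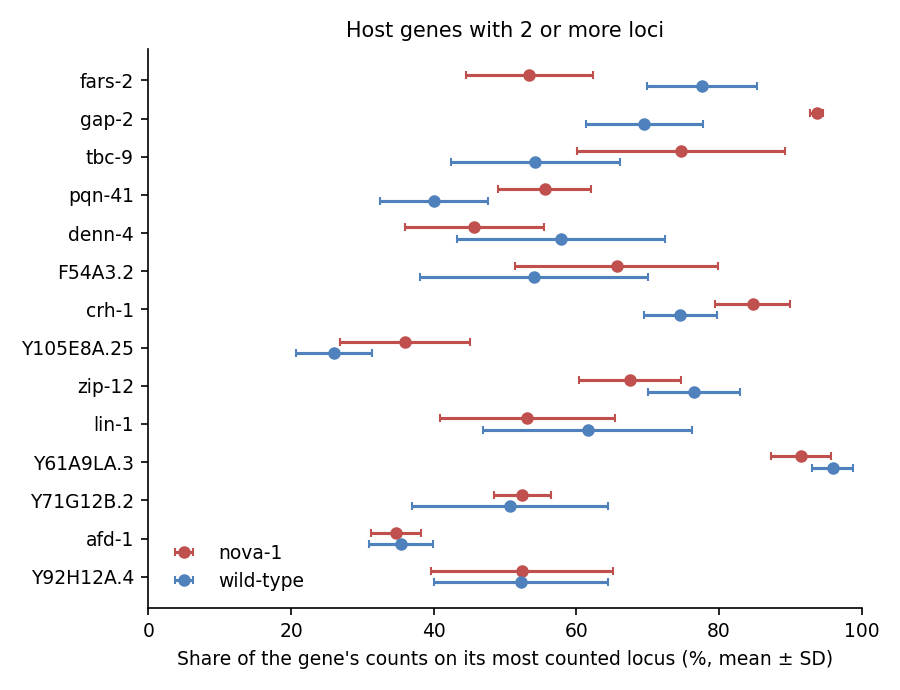
Share of each gene's counts on its most counted locus (%, horizontal axis, mean and SD of 5 libraries) for the 14 host genes with 2 or more loci, *nova-1* above wild-type in each row, ordered by the size of the difference. *fars-2* (53.4% in *nova-1*, 77.6% in wild-type) and *gap-2* (93.7% and 69.5%) are the top rows.

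The loci whose course over the 10 libraries was closest to that of the long *fars-2* locus were sought by the root mean square difference of log2 normalized counts, each locus centred on its own mean. Among 136 other loci with a mean of at least 5 normalized counts, the median difference was 0.85. The closest was *gld-2* (cel_circ_0000075), a cytoplasmic poly(A) polymerase of the germline, at 0.33, with 209.6 to 279 normalized counts in *nova-1* mutants and 76.9 to 123 in wild-type. The next were *Y53C10A.5* at 0.34 (43.8 to 70.3 in *nova-1* mutants, 18.7 to 29.8 in wild-type) and *tbc-17*, a gene of the TBC family of Rab regulators, at 0.36 (84.5 to 106 in *nova-1* mutants, 52.5 to 76.9 in wild-type). All 3 stood higher in the mutants, with log2FC of 1.27, 1.35 and 0.64. The *wars-1* locus ranked 54 of 136 in likeness (0.78) and the short *fars-2* locus 90 (0.98). These distances use the same libraries and the same genotype difference by which *fars-2* was chosen, so they restate that difference and add nothing to it.

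Both genes lie on the chromosome of the deleted gene. In WBcel235, *nova-1* spans 18070004 to 18081957 on chromosome V, *wars-1* begins 0.771 Mb from it and *fars-2* 1.82 Mb from it. Of the 8 loci with a host gene within 2 Mb of *nova-1*, 5 met the unadjusted criterion, 1 higher and 4 lower in *nova-1* mutants, beside 40.4% of all loci. The long *fars-2* locus was the 1 that was higher, and the other 7 had a log2FC below 0. The median log2FC of all 8 loci, with the members included, was -0.55, beside -0.10 over all 141 loci. At the other 13 loci of chromosome V the median log2FC was -0.57, with 9 below 0, 4 called lower and 1 called higher. These 13 include 2 loci without a linked host gene, at table positions 18529389 (log2FC -2.47, called lower) and 18956094 (log2FC -0.87). Both positions also fall within 2 Mb of *nova-1*, so the 13 are not a set of loci outside the window. In strain VDL1105 the allele and any linked chromosome segment that outcrossing left in place are in the same libraries, and their effects cannot be told apart.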

How the data were processed

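The authors deposited 1 table of raw counts per back-splice junction for 10 libraries. They aligned reads to WBcel235/ce11 with HISAT2, realigned unmapped reads with BWA, predicted loci with CIRI2, mapped reads to 200-nt scaffolds with Bowtie2, removed duplicates with Picard and counted with featureCounts. Reads that match several scaffolds can shift counts between loci with a shared end. Columns were matched to samples by genotype and replicate number, and none was left over. Loci were linked to host genes by identical coordinates (112) or by the only row on the same chromosome whose start lay at most 150 nt away and whose span differed by at most 1 nt (26), and 3 had no link. All 3 members had identical coordinates. Exons came from the Ensembl WBcel235 annotation.

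All loci were fitted with edgeR v4.0.16 in R v4.3.3 (glmQLFit and glmQLFTest, the tests the study names). TMM on column totals, no filter and no covariate were chosen here. Standard errors are the absolute log2FC over the square root of *F*. Within-library ratios used a pseudocount of 0.5, and likeness log2(normalized count + 1). Totals of 7955 to 15014 counts leave wide errors at loci with few counts. On simulated data with these library totals and 141 loci, 30 of them changed by a log2FC of 1.5, edgeR recovered 28 at the adjusted threshold and called 2 of 111 unchanged loci. The simulation gave all loci a common dispersion and did not copy the deviation of wild-type replicate 1. Its changes were larger than those of the *fars-2* loci, so these rates may not hold for them. Alternatives were RLE factors, column totals, total sequenced reads, DESeq2 v1.42.0, a low-count filter, robust dispersion, a replicate block and leaving out each replicate.

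The members and lists were chosen with earlier results of these data known. Named are all loci of *fars-2* and *wars-1*, the 3 loci most like the long *fars-2* locus, listed synthetase genes with a locus, up to 5 translation genes and genes whose locus share changed more than that of *fars-2*. Planned values for a second *wars-1* locus could not be made, since 1 is in the table. Host mRNA levels were not analysed here.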

Additional observations from a re-analysis of the deposited data

How the results depend on the processing

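The log2FC of the long *fars-2* locus was 0.98 to 1.22 with each replicate left out and 1.02 to 1.36 under the other alternatives, that of the short locus -0.66 to -0.39 and -0.62 to -0.31, and that of *wars-1* -0.29 to 0.55 and -0.19 to 0.28, so its sign was not settled. The log2 ratio of the *fars-2* loci within libraries averaged -1.85 in the wild-type libraries alone (exact sign-flip test, p = 0.0625, the smallest that 5 libraries allow). In the *nova-1* libraries alone it averaged -0.20 and ran from -0.59 to 0.67 (exact sign-flip test, p = 0.5), so no difference was seen there. With column totals the log2 ratio of summed counts was 0.23 for *fars-2* and 0.25 for all 3 loci, against 0.02 and 0.01 with TMM. Under that setting the median log2FC over all loci moved by 0.23, and the mutants were higher at 68.6% of the called loci, against 52.6% with TMM. Called loci numbered 47 to 58 over the alternatives, against 57, and 31 to 48 at the adjusted threshold, against 40. The 47 came with the low-count filter, which left 118 loci to test. Nothing in the labels ties replicates of equal number to a shared day or batch, and their deviations from the genotype means correlated between -0.157 and 0.147. With the replicate number as a block, 53 loci were called (31 adjusted), the log2FC was 1.13, -0.53 and 0.17 for the long, short and *wars-1* loci, and the share difference was 24.2 points. The block for summed counts (0.02 for *fars-2* and for all 3 loci) and the sum over *fars-2* alone were chosen after seeing the data. Alternatives for a second *wars-1* locus were not run.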
